A study of Homo sapiens with 8 samples.

Results

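The sites described here were ZNF676 binding regions of H1 cells that lay inside gene bodies and away from promoters. They were selected on the H1 peak calls themselves: peaks of the 3 H1 lists that overlapped were joined, and a joined region found in 2 or 3 lists was taken as a consensus region. Regions within 1 kb of any annotated transcription start site (TSS) were dropped, and those overlapping a gene body by at least 1 bp were kept. This left 253 of the 554 H1 consensus regions, while 252 lay between genes and 49 at promoters. Both cell lines together held 1392 consensus regions.

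ZNF676 is a KRAB zinc finger protein (KZFP). Proteins of this family read DNA through an array of zinc fingers and, through the KRAB domain, usually recruit KAP1 (TRIM28) and the heterochromatin machinery around it. LTR12C is the long terminal repeat (LTR) of the ERV9 endogenous retroviruses, and such LTRs carry promoters and enhancers that can drive transcripts of nearby or host genes. Inside a gene an LTR usually sits in an intron, where it can point with or against the direction of transcription.

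H1 is a human embryonic stem cell line and HEK293T a human embryonic kidney line, and both overexpressed ZNF676 with a 3HA tag from a stably integrated lentiviral vector. HEK293T carried the pTRE construct, selected with puromycin and induced with doxycycline, whereas H1 carried pRRL-IRES-Blast and was selected with blasticidin. Each line gave 3 biological replicates precipitated with an anti-HA antibody and 1 input. An immunoprecipitation from cells without the tagged protein was not analysed here, and duplicate reads were removed in H1 only, so cell line, vector and duplicate removal cannot be told apart. The lists hold no expression values, so the cell lines could not be checked against marker genes. The H1 lists held 637, 576 and 495 peaks and the HEK293T lists 1711, 1432 and 1257. The study's methods give a minimum sequencing depth, but the lists hold no read totals, so the depth behind each list after filtering is not known here.

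Most of the regions carried sequence like the 5' end of an LTR12C element, with the same short sequence near its start. The sequences below show it for the cloned element, a copy of 1549 bp at chr6:52651110-52652658 on the plus strand outside any annotated gene and for 9 of the 10 regions with the highest mean rank in the H1 lists, since these are the strongest cases. Capitals mark 12 bases, called the core here, at positions 36 to 47 of the cloned element counted from 1 at its 5' end. The core was chosen after the data had been seen, so all its counts are descriptions. Coordinates are GRCh37 (hg19), each sequence runs 5' to 3' along the element, and a change is written as the base of the cloned element, its position and the base of the copy.
Cloned LTR12C, chr6:52651135-52651194, plus strand: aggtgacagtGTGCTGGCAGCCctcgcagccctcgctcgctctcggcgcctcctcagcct
ENSG00000260719, chr16:29759510-29759569, plus strand: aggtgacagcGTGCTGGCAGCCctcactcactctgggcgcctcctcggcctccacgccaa
UBE2K, chr4:39720623-39720682, minus strand: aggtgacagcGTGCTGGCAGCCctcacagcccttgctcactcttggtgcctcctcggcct
ADGRV1, chr5:90143776-90143835, minus strand: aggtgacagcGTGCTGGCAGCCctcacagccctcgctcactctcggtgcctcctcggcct
ENSG00000224049 (T37C), chr3:187516854-187516913, minus strand: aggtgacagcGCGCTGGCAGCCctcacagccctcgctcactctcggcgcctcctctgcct
PPM1D, chr17:58690806-58690865, plus strand: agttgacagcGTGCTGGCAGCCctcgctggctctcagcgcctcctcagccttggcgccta
ZBTB44-DT, chr11:130207756-130207815, minus strand: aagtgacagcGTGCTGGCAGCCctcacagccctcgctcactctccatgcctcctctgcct
ENSG00000287856, chr1:231567021-231567080, minus strand: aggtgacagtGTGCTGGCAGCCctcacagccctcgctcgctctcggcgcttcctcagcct
LINC-PINT, chr7:130743371-130743430, plus strand: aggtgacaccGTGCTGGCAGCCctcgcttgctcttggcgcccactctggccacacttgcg
THSD1, chr13:52982717-52982776, minus strand: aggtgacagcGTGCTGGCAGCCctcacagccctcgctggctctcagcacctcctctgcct

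The named regions were strong in both cell lines. The authors' score of a peak, which has no stated scale, was compared within a list only, as a percentile rank from 0 for the weakest to 100 for the strongest. The region with the highest mean rank lay in ENSG00000260719, a long non-coding RNA gene, with scores of 8332, 5959 and 3882 in H1 and of 2307, 1665 and 1895 in HEK293T. This put it at ranks 99.8, 100 and 100 in H1. In intron 1 of UBE2K, which encodes a ubiquitin-conjugating enzyme, the H1 scores were 5130, 2976 and 2580 and the HEK293T scores 2586, 1994 and 2141. In intron 78 of ADGRV1, an adhesion receptor gene mutated in Usher syndrome, they were 3864, 2170 and 2149 in H1 and 2185, 1465 and 1925 in HEK293T. PPM1D, a phosphatase gene induced by p53, held a region in intron 1 with H1 scores of 3048, 2458 and 1729 and HEK293T scores of 4091, 2941 and 3789, at mean ranks of 96.9 and 99.4. LINC-PINT, a long non-coding RNA gene, went the other way: its region had a mean rank of 95.7 ± 3.07 in H1 (SD, n = 3) and of 67.0 in HEK293T, with HEK293T scores of 782, 298 and 293. The other 5 of these 10, in TMEM108, ENSG00000224049, ZBTB44-DT, ENSG00000287856 and THSD1, had mean HEK293T ranks from 90.7 to 98.2. Thus 9 of the 10 held the exact core, and the exception in ENSG00000224049 differed by T37C.

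Regions in gene bodies fell into 4 sequence classes, the last 2 of which were set apart after the data had been seen. A region was called LTR12C-like when at least 100 of its bases aligned to the cloned element. Identity to it had a median of 81.5% over these regions, from 66.9% to 89.6%. No repeat annotation was used, so the rule does not separate LTR12C from related LTRs. The study found the 5' extension bound by ZNF676 in LTR12D and LTR12E as well. Of the 253 regions, 218 were LTR12C-like (86.2%, 95% Clopper-Pearson interval 81.3 to 90.2), against 84.5% of all H1 consensus regions. Between genes 219 of 252 were LTR12C-like (86.9%), a difference of -0.739 percentage points that did not pass the test (two-sided Fisher's exact test, Benjamini-Hochberg adjusted over 5 tests, p = 0.901). Regions are not replicates of a cell line, so these p-values describe the lists. The exact core was present in 177 of the 218, and 41 had 1 or 2 changed bases, of which 24 had G41A alone. Another 18 regions were at least 95% A and T, and the remaining 17 had neither feature.

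**Figure D1:**
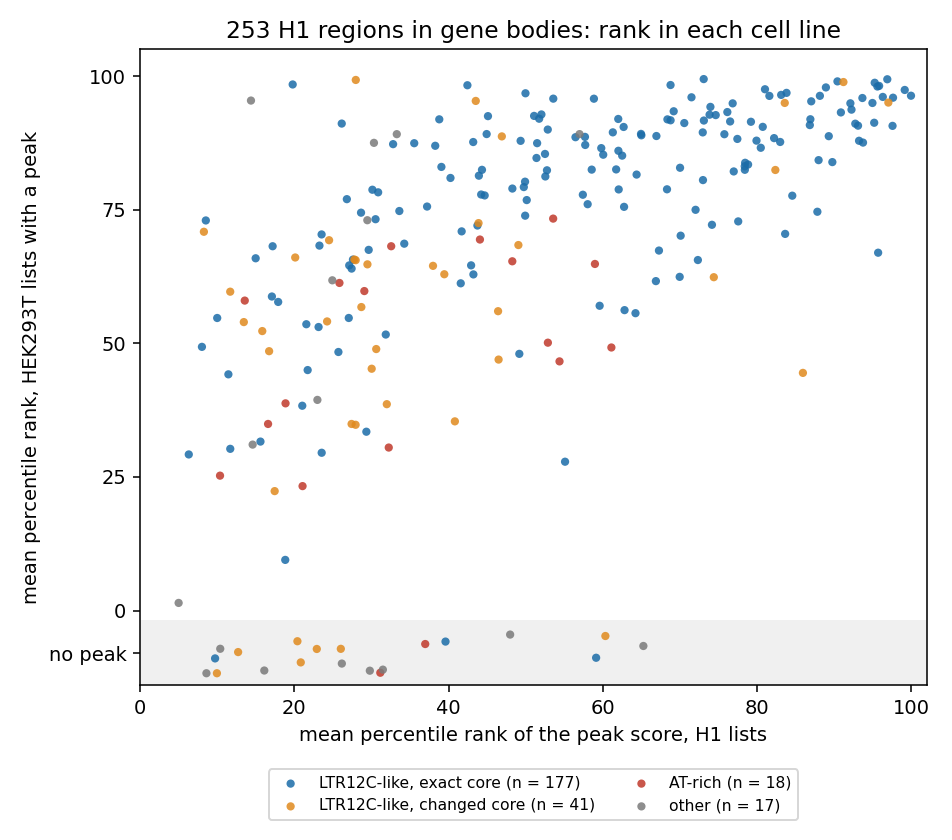
Mean percentile rank of the peak score over the H1 lists with a peak (x axis) against the same over the HEK293T lists (y axis) for the 253 regions, coloured by sequence class; the shaded band holds the 20 regions with no HEK293T peak, spread vertically for visibility. Regions with the exact core span H1 ranks from 6.32 to 99.9, with medians of 61.3 in H1 and 84.5 in HEK293T where a peak was found. Of the AT-rich regions, 0 exceed an H1 rank of 61.1.

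The position of the core within the regions was narrow. In the 177 LTR12C-like regions with the exact core, the centre of the region lay at a median of 20.5 bp downstream of the centre of the core, with quartiles of 6 and 36 bp. The core was within 100 bp of the centre in 174 of these 177 and in 41 of the 41 regions with a changed core. Peak centres of the same region differed between H1 libraries by a median SD of 21.0 bp. This is the spread of single peaks within a region, not that of the median offset over regions. Regions between genes had a median offset of 19.5 bp (n = 179). The whole regions had a median width of 457 bp.

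**Figure D2:**
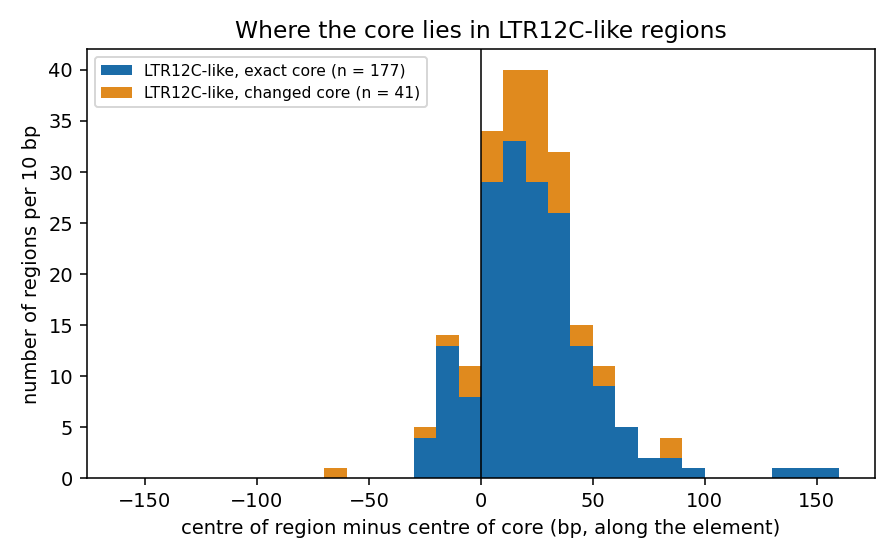
Distance from the centre of the core to the centre of the region, in bp along the element, for the 177 LTR12C-like regions in gene bodies with the exact core and the 41 with a changed core, in bins of 10 bp. Values above 0 place the region centre downstream of the core, and the median with the exact core is 20.5 bp.

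The core also separated copies with a region from copies without. Genome-wide, 2716 LTR12C-like copies kept the 5' end, meaning that at least 50 of the first 200 positions of the element aligned, and 17.2% of them held an H1 consensus region and 19.8% a HEK293T one. In gene bodies, 210 of 932 such copies held an H1 region (22.5%, 95% interval 19.9 to 25.4). With the exact core, 171 of 196 gene-body copies did (87.2%, 95% interval 81.7 to 91.6), and with any change in the core 39 of 736 did (5.30%, 95% interval 3.79 to 7.17). In HEK293T, which played no part in choosing the regions, 180 of the 196 exact copies (91.8%) and 49 of the 736 changed copies (6.66%) held a consensus region. Because the core was found by comparing copies with and without peaks in both lines, these shares carry no test.

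The share of copies with a region differed by position of the change. The change C46T was carried by 246 gene-body copies, more than the exact core, and 0 of them overlapped a peak in any of the 6 lists, which allows a share of up to 1.22%. Over the whole genome 769 copies carried C46T, of which 0 held an H1 region and 2 a HEK293T region. In contrast, 23 of 84 gene-body copies with G41A held an H1 region (27.4%, 95% interval 18.2 to 38.2), and 28 of the 84 held a HEK293T region (33.3%). Between genes the H1 share with G41A was lower, 19 of 145 (13.1%, 95% interval 8.08 to 19.7), and the HEK293T share was 40 of 145 (27.6%). Over the whole genome 52 of 257 copies with G41A held an H1 region (20.2%). With G36A, 2 of 71 held an H1 region (2.82%), and with G36C 0 of 15 did. With 1 change at position 44 or 47, 0 of 6 gene-body copies each held an H1 region. Over the whole genome, however, 6 of 11 copies with C47T held a HEK293T region (54.5%, 95% interval 23.4 to 83.3) and 3 had a peak in an H1 list, while 0 of 21 with A44G had a peak in any list. At positions 42 and 43, 3 of 8 and 3 of 5 copies held a region. The copies below, which lacked an H1 region, were picked for high identity to the cloned element. They show 1 gene-body copy each with C46T, G36A, G36C and G41A. Compared without gaps, the copy in CNTNAP2 differed from the cloned element at 26 of the 60 bases shown, and the others at 3 to 7. The copy in CNTNAP2 also differed at bases next to the core, so it does not show G41A alone.
Copy in ENSG00000255021 (C46T), chr3:14334543-14334602, plus strand: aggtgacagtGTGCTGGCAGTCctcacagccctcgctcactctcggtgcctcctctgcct
Copy in JAZF1 (G36A), chr7:27897128-27897187, minus strand: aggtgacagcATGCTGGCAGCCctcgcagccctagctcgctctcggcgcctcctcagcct
Copy in LINC00240 (G36C), chr6:27012888-27012947, plus strand: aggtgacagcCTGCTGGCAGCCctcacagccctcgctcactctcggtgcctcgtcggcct
Copy in CNTNAP2 (G41A), chr7:146485392-146485451, minus strand: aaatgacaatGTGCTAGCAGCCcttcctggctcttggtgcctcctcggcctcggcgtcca

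**Figure D3:**
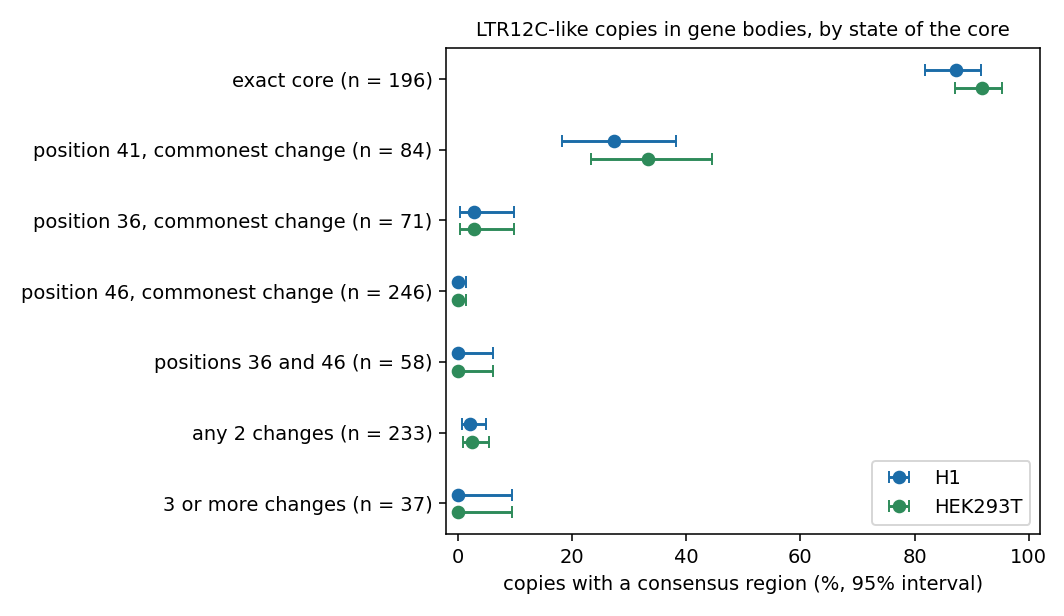
Share of LTR12C-like copies in gene bodies with an H1 (blue) or HEK293T (green) consensus region by state of the core, with 95% Clopper-Pearson intervals; the changes shown are the commonest at each position (G41A, G36A, C46T). Both lines show 87.2% and 91.8% with the exact core and 0% with the change at position 46.

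Bases outside the core were looked at in copies with the exact core. Each position was counted separately, and the same copy can differ at several of them, so the shares are not effects of single bases. A changed copy here is one that differs from the commonest base at that position, which at position 50 is also the base of the element. The 3 bases after it differed in few copies at positions 48 (6 copies, of which 2 held an H1 region) and 49 (1 copy, without a region). At position 50, 144 of 153 gene-body copies with the base of the element held an H1 region (94.1%, 95% interval 89.1 to 97.3), compared with 22 of 35 with C50T (62.9%, 95% interval 44.9 to 78.5). Copies between genes gave 146 of 173 (84.4%) and 23 of 41 (56.1%) for the same bases. Upstream of the core, changed copies in gene bodies also held fewer H1 regions at several positions. The counts were 11 of 17 at position 28, 4 of 9 at 29, 4 of 8 at 31 and at 33, and 5 of 10 at 32. At each of these the share of unchanged gene-body copies, 88.8% to 89.4%, lay above the interval of the changed ones. Copies between genes did not repeat this at the same positions. There 8 of 12 changed copies held an H1 region at position 28, 7 of 9 at 29, 3 of 4 at 31 and at 33, and 6 of 7 at 32. The share of unchanged copies between genes, 77.5% to 78.4%, lay within each of these intervals. It lay above the interval at positions 27 (7 of 14) and 30 (5 of 12) instead. These shares by position carry no test. At position 35, next to the core, 47 of 54 changed copies (87.0%) and 87.3% of the others held a region. At positions 53 to 55 and 57 the share of unchanged copies lay within the interval of changed ones. At position 53, 52 of 59 changed copies (88.1%) and 86.9% of the others held a region.

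**Figure D4:**
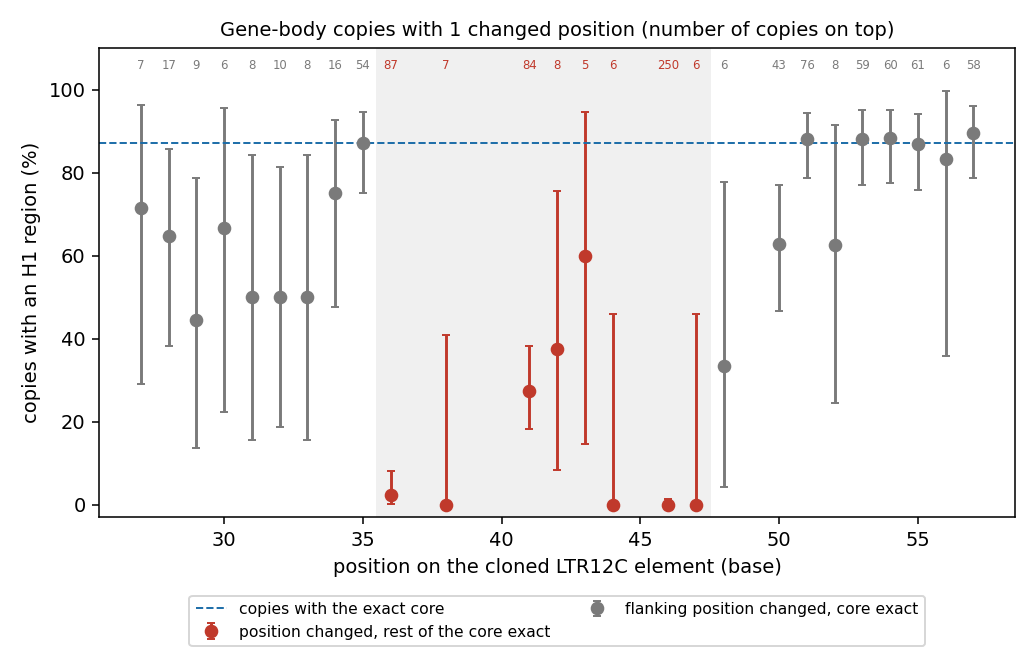
Share of gene-body copies with an H1 region by changed position on the cloned element, with 95% Clopper-Pearson intervals and the number of copies above. Positions with fewer than 5 changed copies are left out. Each flank position was counted separately, so the same copy can enter at several flank positions. Red points are changes within the core (shaded) with the rest of it exact, grey points are changes from the commonest base in the flanks of exact-core copies, and the dashed line is the 87.2% of all exact-core copies.

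A match to the core was not a region by itself. Outside LTR12C-like copies the same 12 bases (both strands) occurred 331 times in gene bodies, and 4 of these matches lay in an H1 region (1.21%, 95% interval 0.330 to 3.07), compared with 179 of 208 matches inside copies (86.1%). The 4 are shown because they carry the core in regions that did not meet the alignment rule. They lie in LTBP1, which encodes a latent TGF-beta binding protein, MAPK10, which encodes the kinase JNK3, PMFBP1, whose product is needed to join sperm head and tail, and the long non-coding RNA gene ENSG00000248431.
LTBP1, chr2:33278535-33278594, plus strand: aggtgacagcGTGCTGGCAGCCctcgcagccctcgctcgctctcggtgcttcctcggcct
MAPK10, chr4:87404231-87404290, minus strand: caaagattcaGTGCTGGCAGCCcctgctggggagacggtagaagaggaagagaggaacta
PMFBP1, chr16:72147602-72147661, minus strand: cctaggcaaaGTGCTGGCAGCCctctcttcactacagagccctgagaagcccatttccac
ENSG00000248431, chr4:163822854-163822913, plus strand: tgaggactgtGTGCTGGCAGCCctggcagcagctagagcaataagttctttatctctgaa
The 60 bases in LTBP1 differed from those of the cloned element at 4 positions, so this region is close to LTR12C in sequence although it did not meet the rule. Compared without gaps, the other 3 differed at 29 to 38 positions. The core lay 10.5, 22.5, 33.5 and 9 bp from the centre of these regions, in the order given. The region in LTBP1 had peaks in all 6 lists, with H1 scores of 792, 402 and 513 and HEK293T scores of 1602, 882 and 1158. MAPK10 and PMFBP1 also had peaks in all 6 lists, with mean H1 ranks of 29.5 and 24.9 and mean HEK293T ranks of 73.0 and 61.8. ENSG00000248431 had peaks in 2 lists of each line. Of the 331 matches outside copies, 302 shared 5 or fewer of the 13 flanking bases at positions 26 to 35 and 48 to 50 with the cloned element, and 1 of these held a region.

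A few exact copies stayed without a peak. Among the 25 gene-body copies with the exact core and no H1 consensus region, 9 had a peak in 1 H1 list. Of the 196, 5 were free of peaks in all 6 lists, among them a copy in GNAI1, a G protein subunit gene. Between genes 22 of 225 exact copies were free of peaks, and in 11 of these 22 the core with 50 bases on each side was identical in another copy, which was so for 0 of the 5 in gene bodies. The authors removed reads of low mapping quality, and such reads come from identical copies. The part of this filter in the difference was not tested.

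The second question was whether copies inside genes were bound as often as copies between genes. It was tested on HEK293T regions, which played no part in choosing the H1 regions, as an alternative chosen after the data had been seen. In HEK293T 229 of 932 gene-body copies held a region (24.6%, 95% interval 21.8 to 27.5) and 264 of 1431 between genes did (18.4%, 95% interval 16.5 to 20.6), a difference of 6.12 points (Fisher's exact test, adjusted p = 0.00105). These counts include copies on chromosome Y, 15 in gene bodies and 44 between genes, and the HEK293T difference without them was not tested. The exact core was also commoner in gene bodies: 21.0% of the copies there had it and 15.7% of those between genes. Among exact copies the HEK293T shares were 91.8% and 84.9% (191 of 225), a difference of 6.95 points that did not pass the test (adjusted p = 0.0851). Among copies with a changed core they were 6.66% and 6.05%, which also did not pass (Fisher's exact test, adjusted p = 0.901). Without copies identical around the core, the difference was 5.59 points over all copies (adjusted p = 0.00392) and 2.58 points over exact copies (adjusted p = 0.672). The H1 shares were 22.5% in gene bodies and 14.9% between genes (213 of 1431), and 87.2% and 77.8% among exact copies. These are given as a description, since the same H1 calls chose the regions.

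Next, the regions were followed in HEK293T. Of the 253, 216 overlapped a HEK293T consensus region (85.4%, 95% interval 80.4 to 89.5), against 84.5% of all H1 consensus regions. Between genes 214 of 252 did (84.9%), a difference of 0.455 points (Fisher's exact test, adjusted p = 0.901). By library, 232, 205 and 207 of the 253 had a peak in HEK293T replicates 1, 2 and 3, or 84.8% ± 5.95 (SD, n = 3), and 195 had one in each. Replicate 1, the longest list, was the highest. The share was higher at higher H1 rank: with the regions cut by H1 rank into 4 groups, from lowest to highest, 41 of 64, 53 of 63, 59 of 63 and 63 of 63 had a HEK293T consensus region. The exact core took 29 of 64, 36 of 63, 55 of 63 and 57 of 63 of the same groups. Mean ranks in the 2 lines had a Spearman's rho of 0.661 over the 233 regions with a HEK293T peak, as a description, since regions share sequence and libraries.

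Sequence class went with sharing between the lines. Of the LTR12C-like regions 203 of 218 had a HEK293T consensus region (93.1%, 95% interval 88.9 to 96.1) and of the other regions 13 of 35 (37.1%, 95% interval 21.5 to 55.1), a difference of 56.0 points (Fisher's exact test, adjusted p = 1.14e-12). Within the LTR12C-like regions, 173 of 177 with the exact core were shared (97.7%) and 30 of 41 with a changed core (73.2%). Those with G41A alone were shared in 15 of 24 and had a median H1 rank of 27.7, against 61.3 with the exact core. Counting a peak in at least 1 HEK293T list, the shares were 95.4% and 71.4%, a difference of 24.0 points (Fisher's exact test, adjusted p = 0.000127). With an alignment of at least 200 bases as the rule, the difference was 32.5 points (Fisher's exact test, adjusted p = 2.39e-10). Leaving out AT-rich regions, 8 of the 17 others were shared (47.1%), and the difference was 46.1 points (Fisher's exact test, adjusted p = 9.36e-06). The classes also differed in H1 rank, with which sharing rose. Median H1 ranks were 61.3 with the exact core, 28.7 with a changed core, 32.4 in AT-rich regions and 26.2 in those of neither kind. The part of rank in the differences between classes was not tested.

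No HEK293T peak was found for 20 regions, of which 8 had no LTR12C-like or AT-rich sequence, 7 had a changed core, 3 an exact core and 2 were AT-rich. The sequences below are those of the regions highest in H1 rank among them that held a core with at most 1 change; 2 of the 4 had the exact core.
ENTREP2 (G36A), chr15:29517452-29517511, minus strand: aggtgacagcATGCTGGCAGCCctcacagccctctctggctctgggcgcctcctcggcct
LINC02511, chr4:137849983-137850042, plus strand: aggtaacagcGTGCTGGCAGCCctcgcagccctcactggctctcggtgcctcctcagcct
MIR4300HG, chr11:81698206-81698265, minus strand: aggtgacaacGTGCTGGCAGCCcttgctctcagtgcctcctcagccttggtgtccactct
PARD3B (G42A), chr2:206140995-206141054, plus strand: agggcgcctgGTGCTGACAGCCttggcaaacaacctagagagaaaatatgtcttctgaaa
PARD3B, a cell polarity gene, held the highest of them in intron 16, with H1 scores of 378, 792 and 892 and ranks of 39.0, 70.5 and 86.3, so its place in the order differed between libraries by an SD of 24.1. It was not LTR12C-like, and its core with G42A lay 11 bp from the region centre. ENTREP2, an endosomal membrane protein gene, had H1 scores of 956, 621 and 385, and LINC02511, a long non-coding RNA gene, had 911, 514 and 428. MIR4300HG had a peak in 2 H1 lists, with scores of 378 and 352. ENSG00000249125, with scores of 567, 595 and 251, completed the 5 strongest regions without a HEK293T peak and had 2 changes in its best match to the core. All 5 were within the range of H1 scores of regions with HEK293T peaks.

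The AT-rich regions behaved differently by library. They were stretches of A and T, as in NCBP2L, shown here by its 60 central bases on the plus strand.
NCBP2L, chrX:107025479-107025538, plus strand: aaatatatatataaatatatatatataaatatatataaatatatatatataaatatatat
Across the 18, the share of A and T ran from 96.4% to 100%, whereas it ran from 33.4% to 51.5% in the LTR12C-like regions. All 18 had a peak in H1 replicates 1 and 2 and 8 had one in H1 replicate 3. In HEK293T, 16 had a peak in replicate 1, 5 in replicate 2 and 0 in replicate 3. Exact-core regions numbered 174, 164 and 171 of 177 in the same HEK293T libraries. The highest AT-rich region by H1 rank, in NCBP2L, had H1 scores of 918 and 503 in replicates 1 and 2 and HEK293T scores of 576 and 114. In LINC02770, a long non-coding RNA gene, the H1 scores were 1236, 786 and 212 and the HEK293T scores 737 and 206. In DSCAM, a neuronal adhesion gene, the H1 scores were 723, 597 and 340 and the HEK293T scores 576 and 104. AT-rich regions made up 7.11% of the regions in gene bodies, 6.75% of those between genes and 1.53% of all HEK293T consensus regions. The difference between libraries was not tested.

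**Figure D5:**
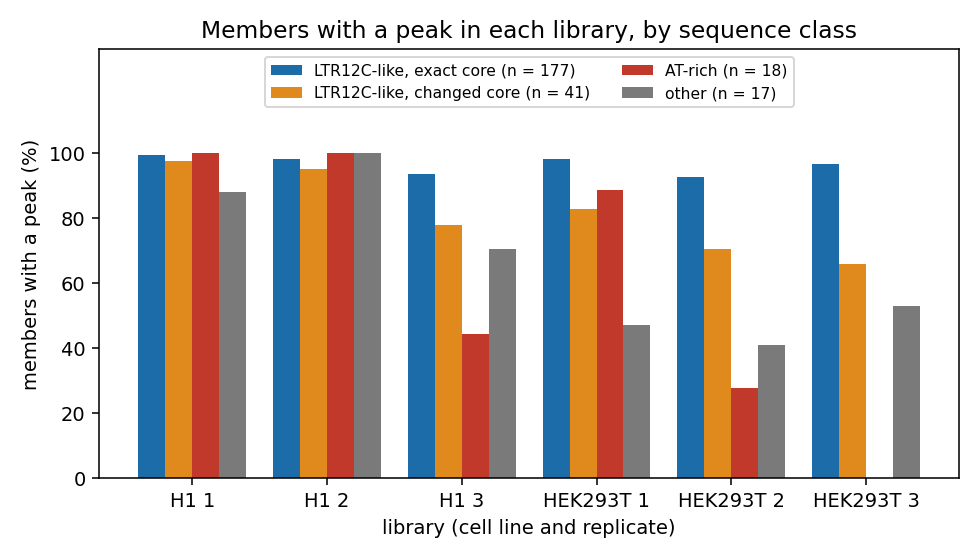
Share of the 253 regions with a peak in each of the 6 libraries, by sequence class; bars start at 0 and the number of regions per class is in the legend. H1 bars partly reflect the selection of regions with 2 H1 peaks, and the AT-rich bars fall from 16 of 18 in HEK293T replicate 1 to 0 of 18 in replicate 3.

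Of the 17 regions of neither kind, 8 had a HEK293T consensus region and 4 held the exact core described above. PCMTD2 and BET1L held regions with 50 and 30 telomere repeats (TTAGGG on either strand), which were among 3 such regions in the 554, and neither had a HEK293T peak. C19orf38 was the only region that overlapped coding sequence, with H1 scores of 169, 302 and 297 and HEK293T scores of 1252, 1086 and 931. Its mean rank was thus 30.3 in H1 and 87.5 in HEK293T.

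Within genes, the regions lay mostly in introns. They overlapped 276 annotated genes, of which 147 were protein-coding, and 146 regions had a protein-coding host. An exon of any gene was touched by 11 regions (4.35%) and an exon of a protein-coding gene by 3, in CES3, MTRFR and C19orf38. The region in CES3, a carboxylesterase gene, at chr16:67007763-67008368, overlapped its 3' UTR and had H1 scores of 2723, 2133 and 1369 and HEK293T scores of 3812, 2513 and 2337. The one in MTRFR, which encodes a mitochondrial translation release factor, at chr12:123734093-123734549, overlapped a 5' UTR and had H1 scores of 1951, 1079 and 697. Of the regions with a protein-coding host, 109 had their centre in an intron of its canonical transcript, and 29 of these were in the first intron (26.6%, 95% interval 18.6 to 35.9). Gene-body copies with and without an H1 region were in the first intron in 24 of 87 (27.6%) and 75 of 288 (26.0%). The median distance to the nearest TSS was 12046 bp over the regions, and it was 12810.5 bp for copies with an H1 region and 12327 bp for copies without one. The region nearest to a TSS among those kept was 1057 bp away, and the farthest of those dropped inside a gene was 996 bp away.

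Orientation did not differ detectably from that of the copies without a region. Of the LTR12C-like regions, 95 pointed with their host gene, 112 against it and 11 lay in genes on both strands. The share in the direction of the gene was 45.9% (95% interval 39.0 to 52.9), against 311 of 713 gene-body copies without an H1 region (43.6%, 95% interval 39.9 to 47.3), a difference of 2.28 points (Fisher's exact test, adjusted p = 0.901). With protein-coding hosts only, the shares were 51.2% (63 of 123) and 42.2% (163 of 386), a difference of 8.99 points (Fisher's exact test, adjusted p = 0.159). The HEK293T share was 90 of 95 for regions in the direction of the gene and 103 of 112 for those against it. Median H1 ranks were 51.4 and 57.7.

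Host genes were long, as were those of copies without a region, and the study linked ZNF676 to genes of cilia and flagella. The protein-coding hosts had a median length of 205 kb per region, whereas all 20163 protein-coding genes had a median of 27.2 kb. Protein-coding hosts of gene-body copies had a median of 211 kb with an H1 region and of 259 kb without one. Overall 0.730% of protein-coding gene names held a region. Among 99 annotated genes of a list for the motile cilium and flagellum, 2 did (2.02%, 95% interval 0.246 to 7.11). The list had a median gene length of 67.4 kb. Gene length moves with this share, and its part was not tested. The study's link rests on genes near LTR12C copies and on effects of ZNF676 knockdown and overexpression. The study also places the sites of DNAH11 and C4orf47 at a promoter or TSS. Regions within 1 kb of a TSS or between genes were left out here, so this share does not test that link. SPAG16, which encodes a protein of the sperm axoneme, held an LTR12C-like region with G41A in intron 10, with H1 scores of 378, 257 and 151 and HEK293T scores of 166 and 114. ENKUR, a sperm and cilium adaptor gene, held a region of neither class with H1 scores of 385 and 213 and no HEK293T peak. Both were in the lower part of the H1 order, at mean ranks of 27.9 and 31.5.

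A list for the synapse and cell adhesion had regions in 6 of 72 genes (8.33%, 95% interval 3.12 to 17.3), with a median gene length of 840 kb. GRM7, a metabotropic glutamate receptor gene, held the highest of these, with a core changed by G42A, H1 scores of 1563, 1344 and 819 and HEK293T scores of 540, 86 and 267. LRRTM4, a synaptic adhesion gene, held the exact core, with H1 scores of 700, 725 and 715 and HEK293T scores of 2112, 1049 and 1176. CNTN4, a contactin gene, held 2 regions, of which the one with the exact core had H1 scores of 982, 591 and 462 and the one with G41A had 310, 265 and 195. DLG2 and NRXN3, genes of a synaptic scaffold and of a neurexin, held regions with G41A at mean H1 ranks of 46.9 and 27.4, and DSCAM held the AT-rich region above. Zinc finger genes held regions in 2 of 566 (0.353%), of which ZNF438 had an exact core and H1 scores of 2375, 1656 and 1127, and ZNF350 had no LTR12C-like sequence and H1 scores of 219, 242 and 165.

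More than 1 region lay in 16 host genes, and ENSG00000285679 on the X chromosome held 3. Pairs within a gene let copies of unlike sequence be set side by side. In COX7B2, a testis cytochrome c oxidase subunit gene, the copy with the exact core had H1 scores of 751, 638 and 432 and the copy with G41A had 302 and 138. In LINC02240 the exact copy had 1605, 1062 and 679 and the G41A copy 377 and 238, and in ENSG00000286836 the exact copy had 2850, 1577 and 981 and the G41A copy 342, 141 and 124. With CNTN4, these 4 genes held an exact and a G41A copy each, and the exact copy was higher in each H1 list with both. The same H1 lists chose the regions and helped to choose the core, so this order is a description and carries no test. ROBO1, an axon guidance receptor gene, held 2 exact copies in intron 2 with scores of 1540, 1121 and 726 and of 219, 336 and 124, at mean ranks of 83.0 and 23.3, so copies with the same core also stood far apart in rank. STPG2 and CNTLN, a centriole protein gene, held 2 exact copies each, with mean ranks of 41.7 and 21.0 in the former and of 31.9 and 18.8 in the latter. The pair in LTBP1 had mean ranks of 73.1 and 57.0. LINC01885, LINC02208, ENSG00000254186 and the 3 regions in ENSG00000285679 all held exact cores, and LINC02742 held an exact copy and a region of neither class at ranks of 61.3 and 16.1. The 2 regions of LINC02208 were also those of LINC02147, and DHRS4-AS1 and DHRS4L1 shared 2 regions with ranks of 57.7 and 51.7.

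Regions that just met the rule on libraries looked different from the rest. The 44 regions with a peak in 2 H1 lists had a median rank of 20.6, 27 of them were LTR12C-like and 23 had a HEK293T consensus region. The 209 with a peak in 3 had a median rank of 58.0, with 191 LTR12C-like and 193 shared. Just outside the rule, 60 gene-body regions had a peak in 1 H1 list, with a median rank of 10.7, 33 LTR12C-like and 19 shared. These values follow from the selection in part and carry no test.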

How the data were processed

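ZNF676-3HA was precipitated in 3 H1 and 3 HEK293T libraries, with 1 input each. Reads were aligned by the authors with Bowtie2 to hg19. They removed reads of low mapping quality and in blacklisted or high-input regions, removed duplicates with Picard in H1 only, and called peaks per library with MACS2 against the input of the line. The deposited lists give position, name and a score whose scale is not stated. The score was used for ranks within a list.

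Of 6108 peaks, 0 ended beyond their chromosome in GRCh37. Genes came from GENCODE release 44 lifted to GRCh37. Regions and genome were aligned with blastn 2.17.0 (E-value at most 1e-10) to the LTR12C element that the study cloned, located by its primers. Copies were alignments chained across gaps of up to 500 bp. The core was read as the best match on the strand of the element.

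Shares were compared with two-sided Fisher's exact tests in scipy 1.17.1, Benjamini-Hochberg adjusted over 5 tests with statsmodels 0.14.6, at a threshold of 0.05. The planned test of copies by H1 regions is given without its p, since H1 calls chose the regions, and the adjustment of its HEK293T version replaced it among the 5. Clopper-Pearson intervals at 95% and the limit for a count of 0 (3 counts) cover counting error only. Tested on simulated data, the alignment recovered 100% of mutated pieces of the element and the core reading 100% of planted changes. The pieces had substitutions but no inserted or lost bases, and the changes were planted in an otherwise unchanged element. Recovery of shorter, gapped or more diverged copies, as in the genome, was not tested. The region rule, the gene lists and the tests were chosen with earlier results of these data known. Named regions were the 10 highest by mean H1 rank with 3 peaks, the 5 highest each with 0 HEK293T peaks, without LTR12C-like sequence and in protein-coding exons, those in the listed genes, up to 5 in zinc finger genes, and hosts with 2 or more. Other regions were named after their values were seen. Sequences in UTRs and some others are not reported here. Alternatives were stricter or looser library, TSS, gene, score, overlap and alignment rules, and each library left out.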

Additional observations from a re-analysis of the deposited data

How the results depend on the processing

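Of 92 alternative values, 65 kept the direction and the side of the threshold or, for plain values, were counted as near the reported one. For the number of regions, counts from 192 to 313 were counted as near 253. Of the rest, 15 changed sign, 5 kept the sign but no longer passed the threshold, and 7 plain values moved further. The number of regions was 146 with protein-coding genes only and 129 with the strongest 50% of each list, and 213 to 245 without 1 H1 library. The difference in HEK293T share from regions between genes changed sign in several settings, with no adjusted p at or under 0.05: -1.94 points with at least 1 H1 library, -1.65 with promoters of 5 kb, -1.71 with the strongest 50%, -2.35 with a peak in at least 1 HEK293T list, -2.69 with one in all 3, -0.426 without AT-rich regions, and -2.69 to 2.66 without 1 library. The difference in LTR12C-like share was 0.566 with all 3 H1 libraries, 0.129 with 200 aligned bases and -1.22 to 0.988 without 1 H1 library. Orientation differed by -0.841 points with the strongest 50%, 8.99 with protein-coding hosts, 5.55 with promoters of 5 kb and 3.31 to 4.05 without 1 H1 library. The difference in H1 share between gene-body and intergenic copies, 7.65 points, was 3.67 with the strongest 50%, 2.15 in copies with a changed core, 5.47 in exact copies unique around the core, and 6.75 to 7.88 without 1 H1 library. With HEK293T regions it was 6.95 in exact copies, 0.605 in copies with a changed core and 2.58 in exact copies unique around the core, none past the threshold. LTR12C-like and other regions differed in HEK293T share by 24.0 points with a peak in at least 1 HEK293T list, 32.5 with 200 aligned bases and 45.9 to 68.0 without 1 library. The share of exact gene-body copies with a region was 80.1% with all 3 H1 libraries, 91.8% with at least 1, 55.1% with the strongest 50% and 80.1% to 85.7% without 1 H1 library. The shifts in number and in share of exact copies follow from fewer or more regions being kept, and other causes were not tested. No paired analysis was possible because the tests count regions and copies of consensus lists, which carry no replicate number. Read totals after filtering are not known here, and list length limits what an absent peak can show.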
